A study of Homo sapiens with 3 samples.

Results

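The genes described here encode the enzymes that add acyl groups to histone lysines, the enzymes that remove them, and the scaffold proteins that carry the removing enzymes to chromatin. They were taken by symbol from the table of normalized counts as a list of 37, and all 37 were among the 17329 genes of the table. They were measured by polyA RNA sequencing in Jurkat, an established line from a human T-cell leukaemia kept in medium with fetal bovine serum. Cells spent 48 hours in standard medium alone (control), with 50 mM sodium oxamate added (oxamate), or with 50 mM sodium oxamate plus 10 mM L-sodium lactate (oxamate+lactate). Oxamate inhibits lactate dehydrogenase, the enzyme that makes lactate from pyruvate. The question behind the series is how lactylation of lysines in histone H3 bears on transcription, and neither lactate nor any histone mark is measured by these RNA values.

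Histone acetyltransferases move an acetyl group from acetyl-CoA to lysines of histone tails, which loosens the contact with DNA and creates docking sites for bromodomain proteins. The same lysines can carry a lactyl group derived from lactate, and the acetyltransferase p300 has been described as an enzyme that places it. Zinc-dependent histone deacetylases remove such groups by hydrolysis, with class I members described as removing lactyl groups as well, while sirtuins remove them at the cost of NAD. In T-cell precursors these enzymes work in large complexes that T-lineage transcription factors recruit to genes.

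Each condition had 1 library, so differences describe these libraries only, with no p-value, no error between cultures and no replicate check. The values are counts normalized and rounded by the authors, and read depth is unknown, so no counting interval can be given. Within a culture, a difference in every cell and a shift in the mix of cell states cannot be told apart. Values summed over genes to between 8171633 and 8821115 per library. Ratios are log2 of (value + 1) over (value + 1), given where the mean of the 3 libraries reached 50, called the floor, as it did for 12292 genes. In the 18 ERCC spike-in RNAs with a mean of at least 100, which measure handling after RNA extraction, the log2 ratio of oxamate against control ran from -0.24 to 0.29 (SD 0.13), that of oxamate+lactate against oxamate from -0.39 to 0.10 (SD 0.11) and that of oxamate+lactate against control from -0.39 to 0.39 (SD 0.19). Of 10 T-lineage markers, 9 were over the floor, with a sum of 15103 to 17717 per library. The exception was CD28, at 3, 66 and 20 (values in this order are those of control, oxamate and oxamate+lactate throughout). Of 4 B-cell markers only CD79A was over the floor (62 to 76), none of 4 myeloid markers had a row, and of 4 epithelial or fibroblast markers COL1A1 was over the floor (165 to 202).

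In the oxamate library, 8 of 15 genes of acetyltransferases and their partners (53.3%) were at least 25% higher than in control, beside 23.1% of all genes. The class IIa deacetylases HDAC4 and HDAC7 were too, and none of the 4 class I deacetylases was. A second line was drawn at 25% higher or 20% lower, the same fold in either direction. Of the 37 genes, 34 were over the floor. At least 1.5-fold higher was 1 of these 34, HDAC4, beside 7.48% of all genes over the floor, and 0 were 1.5-fold lower, beside 3.98%. At the 25% and 20% lines, 12 of 34 (35.3%) were higher, beside 23.1% of all genes, and 1 of 34 (2.94%) was lower, beside 11.8%. The median log2 ratio of the 34 was 0.15, and that of all genes was 0.08. The count of 12 higher and 1 lower depends on the scaling of the libraries. Relative to the median of all genes it was 6 and 3, beside 2024 and 2033 of the 12292 genes. With columns scaled to equal sums it was 5 and 3, beside 1834 and 2212. In both scalings the members' share of higher genes was close to that of all genes, and their share of lower genes was below it. Relative to the median of all genes CREBBP, KAT5, KAT6A, HDAC7, SIRT3 and SIRT7 fell short of the line. This left 5 of the 15 acetyltransferase and partner genes and HDAC4, and HDAC2 and HDAC11 joined SIRT5 among the lower genes. With equal sums 4 of the 15 passed the line of 25% higher. With the trend on GC content and length removed 4 also did, beside 2171 of 10736 genes. KAT2A, KAT6B, BRPF1, BRPF3, HDAC4 and SIRT5 passed their line in the deposited values, in all 3 other scalings and with the trend on GC content and length removed. The members' median lay close to that of all genes, and their classes differed from each other. Acetyltransferases with their partners had a median of 0.33, the 9 zinc-dependent deacetylases over the floor -0.07, and the 6 sirtuins over it 0.24.

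**Figure D1:**
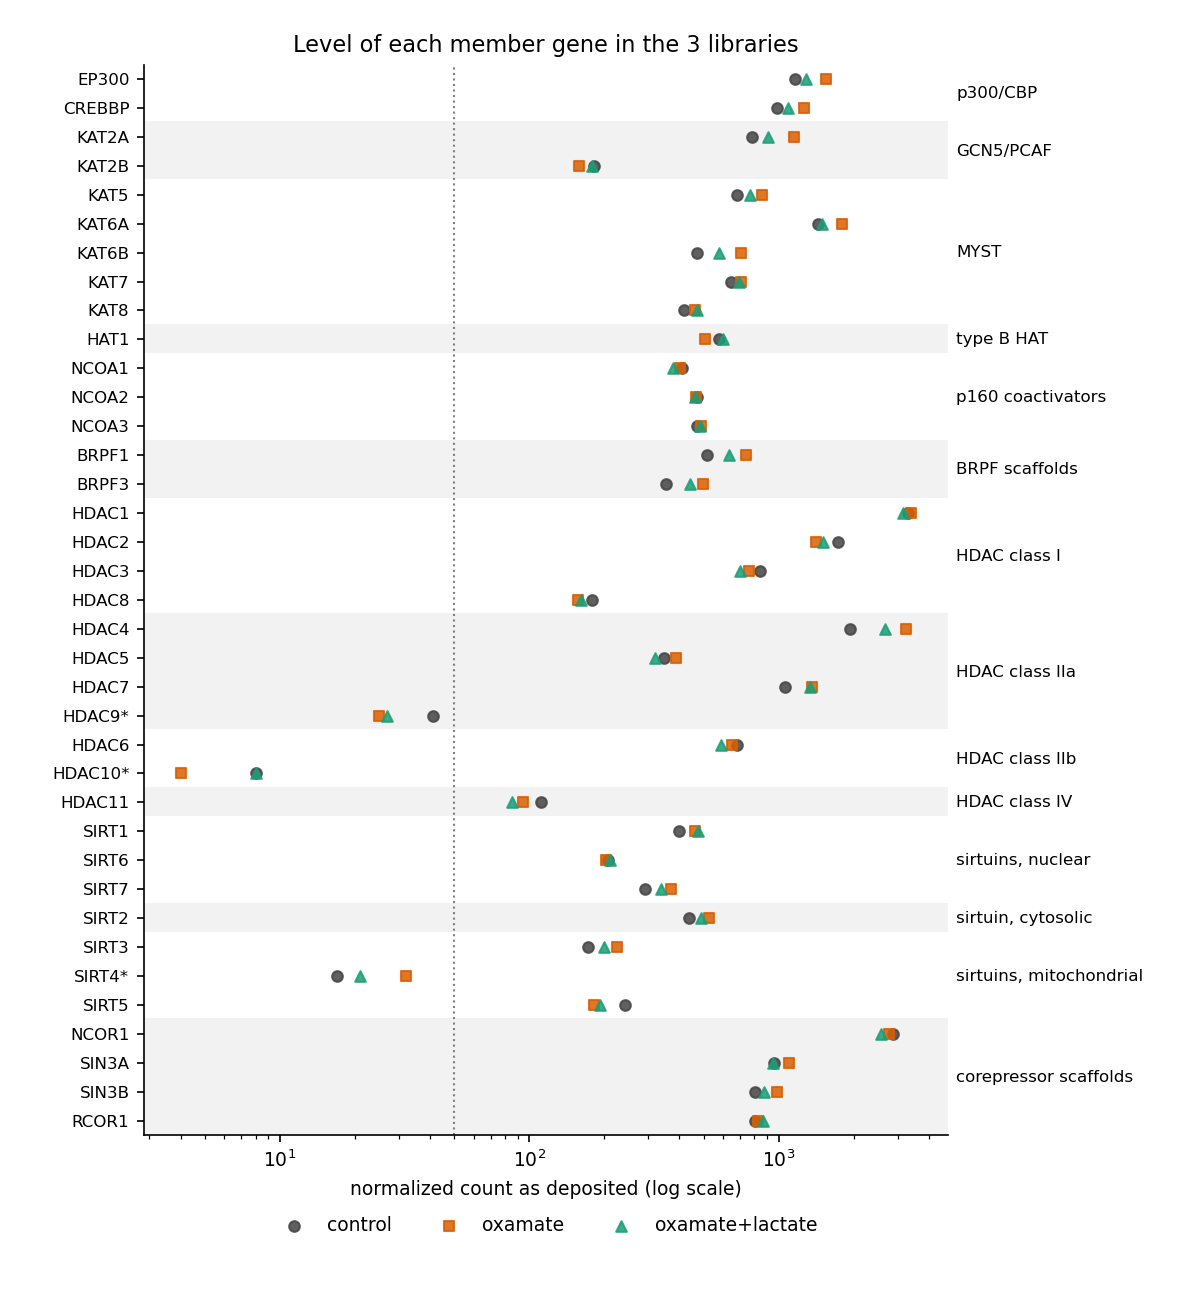
Normalized count as deposited (log axis) of each of the 37 genes in the control (circle), oxamate (square) and oxamate+lactate (triangle) library, grouped by role; 1 library per point. The dotted line marks the floor of 50, applied to the mean of the 3 libraries, and the 3 genes under it carry an asterisk. HDAC4 shows a wide gap between control (1931) and oxamate (3252), while the 3 p160 coactivators lie close together.

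Before the values by class, the promoters of the genes with the 3 highest and the 3 lowest ratios of oxamate against control are shown, since these genes mark the ends of the range. Each is the 100 bases before a RefSeq transcription start of the gene, read 5′ to 3′ on the gene's strand. The assembly is GRCh38.p14, another build than the hg19 of the submitters' processing notes. Only the first listed start of each gene was used, so the window need not lie at the main start or at the start used in these cells. Motif matches are in capitals. The higher genes were HDAC4 at chr2:239274782-239274881 (minus strand), KAT6B at chr10:74825155-74825254 (plus strand) and KAT2A at chr17:42121368-42121467 (minus strand). The lower genes were SIRT5 at chr6:13574501-13574600 (plus strand), HDAC2 at chr6:113971149-113971248 (minus strand) and HDAC11 at chr3:13480206-13480305 (plus strand).
HDAC4: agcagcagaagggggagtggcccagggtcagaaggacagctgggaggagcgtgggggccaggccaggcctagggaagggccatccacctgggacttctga
KAT6B: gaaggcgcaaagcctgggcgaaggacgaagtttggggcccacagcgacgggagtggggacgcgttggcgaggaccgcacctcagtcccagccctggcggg
KAT2A: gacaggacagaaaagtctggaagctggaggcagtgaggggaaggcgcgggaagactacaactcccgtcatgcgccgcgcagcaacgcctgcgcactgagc
SIRT5: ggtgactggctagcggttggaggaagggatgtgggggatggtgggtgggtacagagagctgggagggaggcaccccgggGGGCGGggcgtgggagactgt
HDAC2: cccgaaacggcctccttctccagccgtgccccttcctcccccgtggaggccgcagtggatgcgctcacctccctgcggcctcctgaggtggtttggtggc
HDAC11: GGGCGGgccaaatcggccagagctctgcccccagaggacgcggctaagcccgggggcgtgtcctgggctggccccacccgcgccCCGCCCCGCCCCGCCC

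Of the 37 genes, 32 had an entry in the promoter table, and 4 motifs were searched on both strands of these 100 bases. The GC box GGGCGG was found in 15 of 32 promoters (46.9%), beside 53.4% of the 8427 promoters of genes over the floor. The CCAAT box was found in 4 (12.5%, beside 22.3%), the E-box CACGTG in 1 (3.12%, beside 5.13%) and the ETS core CCGGAAG in 7 (21.9%, beside 11.9%). Among the 6 promoters printed, SIRT5 and HDAC11 hold GC boxes (1 and 4 matches) and the other 4 hold none of the motifs in this window. HAT1, which was also lower in oxamate, holds a GC box, a CCAAT box and an ETS core. The median GC content of the window was 69.5% for the 32 promoters and 69% for genes over the floor. A match describes letters in this window and is not a binding site.

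The paired coactivator acetyltransferases p300 and CBP, which acetylate histone H3 at enhancers and bind many transcription factors, were both higher in oxamate. EP300, which encodes p300, had 1164 normalized counts in control, 1548 with oxamate and 1287 with oxamate+lactate. Its log2 ratio was 0.41 for oxamate against control, above that of 84.3% of genes, and -0.27 for oxamate+lactate against oxamate. CREBBP, which encodes CBP, had 986, 1267 and 1092, with log2 ratios of 0.36 and -0.21. Both genes were at least 25% higher in oxamate than in control as deposited and with equal ERCC sums. Neither was with equal sums over genes (median of the pair 0.28) or with the GC trend removed (0.26, beside 0.09 for all genes). When centred on the median of all genes, EP300 alone passed that line. Oxamate was the highest library for both genes and oxamate+lactate lay between the others. The level of EP300 divided by that of CREBBP, a ratio that library scaling does not touch, stayed between 1.18 and 1.22. Such a ratio of counts is not scaled by transcript length, so only its difference between libraries can be read. EP300 overlaps an annotated antisense gene, and since the library kit does not mark strand the reads of such pairs cannot be told apart.

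The catalytic subunits of the SAGA and ATAC complexes went different ways. KAT2A, which encodes GCN5, had 783 normalized counts in control, 1154 with oxamate and 910 with oxamate+lactate, with a log2 ratio of 0.56 for oxamate against control, just under the 1.5-fold line at 1.473-fold. Its exons overlap those of another gene model on the same strand. Its paralog KAT2B, which encodes PCAF, had 182, 158 and 179 (log2 ratio -0.20, within the ERCC range of -0.24 to 0.29). The level of KAT2A divided by that of KAT2B was 4.3 in control, 7.3 with oxamate and 5.08 with oxamate+lactate. KAT2A thus stood highest and KAT2B lowest in the same library.

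Acetyltransferases of the MYST family, which act on histone H3 and H4 in separate complexes, were all above the median of all genes in oxamate against control (5 of 5, median log2 ratio 0.33), and 3 of them were at least 25% higher, beside 23.1% of all genes. KAT5 (1.254-fold) and KAT6A (1.253-fold) were just past that line, and when centred on the median of all genes KAT6B alone passed it. KAT6B, the catalytic subunit of the MORF complex, had 471 normalized counts in control, 706 with oxamate and 577 with oxamate+lactate (0.58 for oxamate against control, 1.498-fold; it overlaps an antisense gene). Its paralog KAT6A, the MOZ subunit, had 1435, 1799 and 1492 (0.33), so that the level of KAT6A divided by that of KAT6B was 3.05, 2.55 and 2.59. KAT5, the TIP60 enzyme that also acetylates the DNA damage kinase ATM, had 684, 858 and 768 (0.33; it overlaps RNASEH2C). KAT7, which acetylates histone H3 near replication origins, had 642, 706 and 691 (0.14; it overlaps FAM117A), and KAT8, the histone H4 acetyltransferase of the MSL and NSL complexes, had 418, 460 and 469 (0.14). The first 3 were highest in oxamate, whereas KAT7 and KAT8 differed little between the treated libraries.

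The BRPF scaffolds, which hold complexes of MYST enzymes together, were higher in oxamate as well. BRPF1, which binds the catalytic subunit of MOZ and MORF and activates it, had 516 normalized counts in control, 741 with oxamate and 630 with oxamate+lactate (log2 ratio 0.52 for oxamate against control). BRPF3, its paralog, had 355, 497 and 443 (0.48). In each gene control was the lowest and oxamate the highest library. The level of BRPF1 divided by that of BRPF3 was 1.45, 1.49 and 1.42.

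The type B enzyme HAT1, which acetylates newly made histone H4 before its assembly into chromatin, went the other way. It had 579 normalized counts in control, 508 with oxamate and 601 with oxamate+lactate. Its log2 ratio was -0.19 for oxamate against control and 0.24 for oxamate+lactate against oxamate. The value of -0.19 lies within the range of the ERCC ratios (-0.24 to 0.29), and it was -0.08 with the GC and length trend removed. The p160 coactivators of nuclear receptors were level. NCOA1 had 410, 401 and 377, NCOA2 had 469, 465 and 463, and NCOA3 had 471, 487 and 484. Their log2 ratios of oxamate against control ran from -0.03 to 0.05, and the sign of NCOA2 and NCOA3 changed in other scalings or with the GC trend removed.

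**Figure D2:**
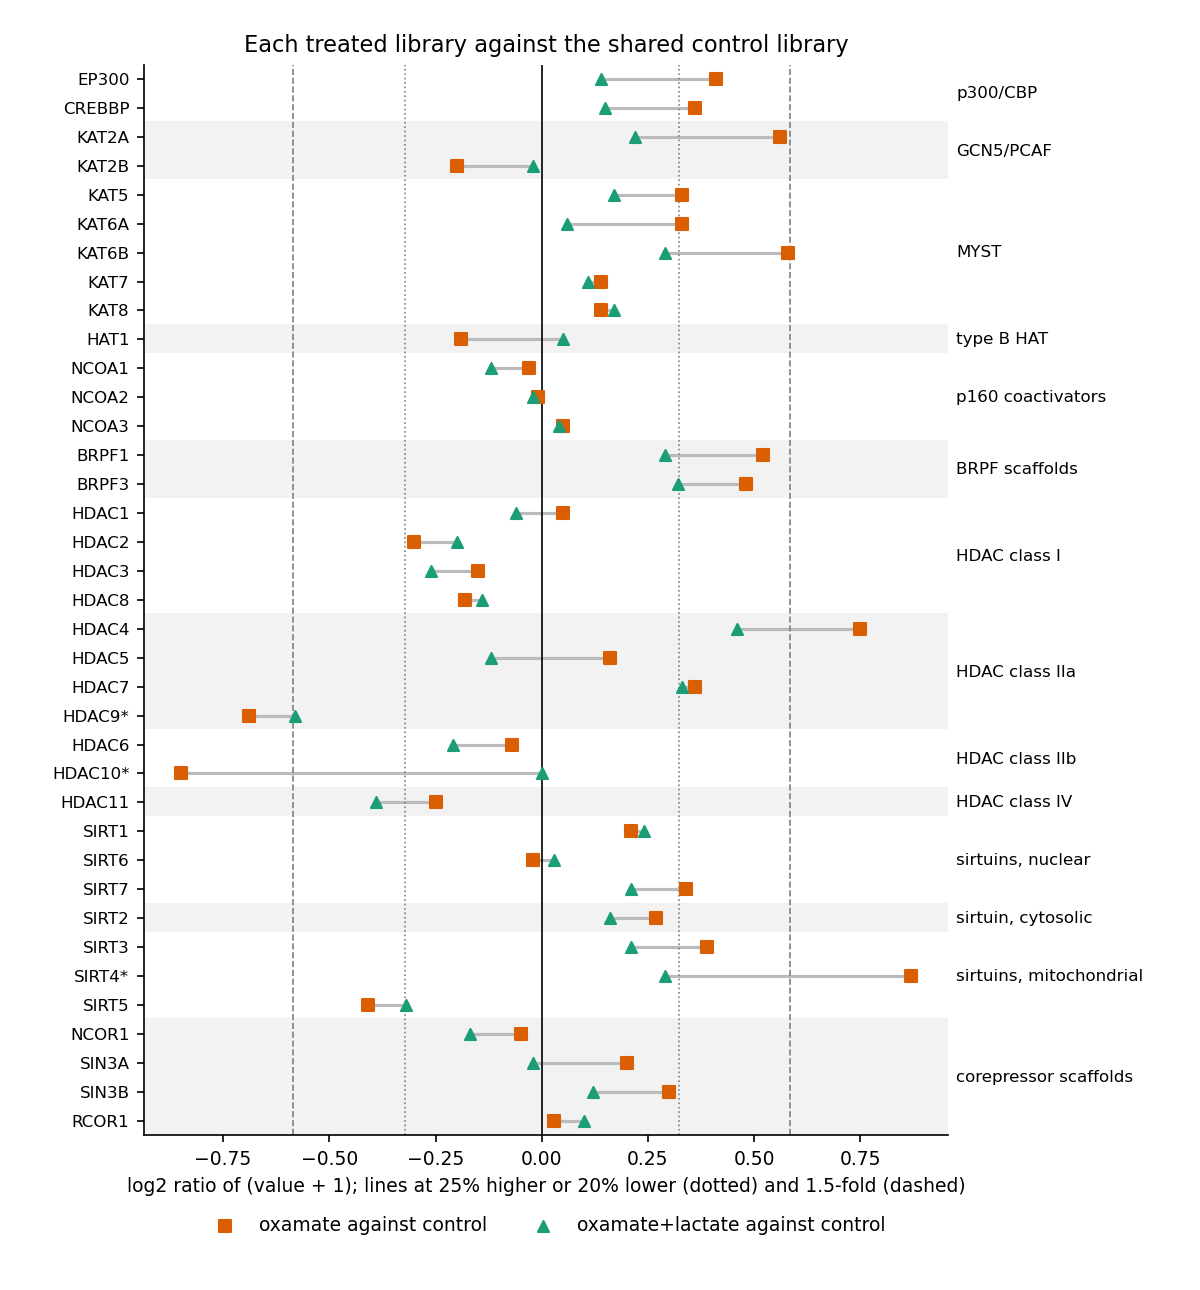
Log2 ratio of oxamate (square) and of oxamate+lactate (triangle) against the same control library for each gene, so the 2 ratios of a gene share the control value; dotted lines mark 25% higher and 20% lower, dashed lines 1.5-fold, and genes under the floor carry an asterisk. p300, CBP, GCN5, MORF, both BRPF scaffolds and HDAC4 lie to the right, and HDAC2, HDAC3, HDAC8, HDAC11 and SIRT5 to the left.

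Class I deacetylases, which apart from HDAC8 are the catalytic cores of the NuRD, SIN3, CoREST and NCoR complexes, were level or lower in oxamate. All 4 lay below the median of all genes (median log2 ratio -0.16). HDAC1 had 3299 normalized counts in control, 3408 with oxamate and 3164 with oxamate+lactate (0.05 for oxamate against control), a sign that turned in other scalings. Its close paralog HDAC2 had 1737, 1412 and 1508 (-0.30), the second lowest member, so that the level of HDAC1 divided by that of HDAC2 was 1.9, 2.41 and 2.1. HDAC3, the enzyme of the NCoR complex, had 839, 758 and 700 (-0.15; it overlaps an antisense gene), and HDAC8, a class I enzyme that deacetylates cohesin, had 178, 157 and 162 (-0.18; it overlaps a coding gene model on the same strand). Control was the highest library for HDAC2, HDAC3 and HDAC8. In the deposited scaling none of the 4 genes was 25% higher or 20% lower in any of the 3 comparisons. HDAC2 passed the line of 20% lower in oxamate with equal sums (-0.40) and when centred on the median of all genes (-0.38).

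Class IIa deacetylases shuttle between nucleus and cytoplasm under the control of phosphorylation and have little catalytic activity of their own. Their median log2 ratio was 0.36 over the 3 genes over the floor. Of these 2 were at least 25% higher in oxamate, beside 23.1% of all genes. HDAC7 was not past that line with equal sums, relative to the median of all genes or with the GC trend removed. HDAC4 had 1931 normalized counts in control, 3252 with oxamate and 2660 with oxamate+lactate. It was 1.68-fold higher in oxamate than in control (log2 ratio 0.75), above 96.6% of all genes, and 1.38-fold higher in oxamate+lactate than in control (0.46). HDAC7, a class IIa enzyme of thymocytes that represses the gene of the death inducer NUR77, had 1062, 1365 and 1331 (0.36 and 0.33 against control; it overlaps SLC48A1). HDAC5 had 347, 389 and 319 (0.16 and -0.12), and its ratio of oxamate against control changed sign with the GC trend removed. HDAC4 and HDAC7 were thus above control in both treated libraries, while HDAC5 was above it only with oxamate alone. HDAC9 was under the floor at 41, 25 and 27, too low for a ratio to be read.

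Of the class IIb enzymes, HDAC6, the cytoplasmic deacetylase of tubulin, had 681 normalized counts in control, 649 with oxamate and 590 with oxamate+lactate (log2 ratio -0.07). HDAC10, a polyamine deacetylase, was under the floor at 8, 4 and 8. HDAC11, the class IV enzyme that removes fatty acyl groups, had 112, 94 and 85, with a log2 ratio of -0.25 for oxamate against control and -0.39 for oxamate+lactate against control (1.31-fold lower; it overlaps an antisense gene). HDAC6 and HDAC11 were both highest in control and lowest in oxamate+lactate.

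Scaled by the length of the longest annotated transcript, HDAC1 was the most abundant of the 37 genes, at 1370 normalized counts per kilobase in control, 1410 with oxamate and 1310 with oxamate+lactate. HDAC3 followed with 428, 387 and 357 per kilobase. HDAC4 had 215, 362 and 296 per kilobase, and HDAC2, whose longest transcript has 9874 bases, had 176, 143 and 153. This scale understates a gene that is expressed mainly as a shorter transcript. Of the summed level per kilobase of the 11 HDAC genes, class I made up 76.3% in control, 70.9% with oxamate and 72.2% with oxamate+lactate, and class IIa 17.1%, 23.4% and 22.1%. Class IIb made up 4.49% to 5.06% and class IV 1.12% to 1.44%. The mix of deacetylase transcripts therefore held more class IIa in both treated libraries, by levels within each library.

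Among the sirtuins over the floor, the mitochondrial members had the highest and the lowest ratio, with SIRT3 close to the nuclear SIRT7 (0.34). SIRT3, the main mitochondrial deacetylase, had 172 normalized counts in control, 225 with oxamate and 199 with oxamate+lactate (log2 ratio 0.39 for oxamate against control; it overlaps PSMD13). SIRT5, which removes succinyl, malonyl and glutaryl groups, had 242, 182 and 193 (-0.41), the lowest ratio of the 34 genes and at least 20% lower in oxamate (1.33-fold). In the deposited scaling no other member over the floor was. With equal sums and when centred on the median of all genes HDAC2 and HDAC11 were too, and HDAC11 was with the GC trend removed. The level of SIRT3 divided by that of SIRT5 was 0.711, 1.24 and 1.03, higher in both treated libraries. Per kilobase SIRT3 was above SIRT5 in every library, at 65.5, 85.6 and 75.8 against 55.2, 41.5 and 44. SIRT5 overlaps an antisense gene, and SIRT4 was under the floor at 17, 32 and 21.

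The nuclear and cytosolic sirtuins were level or somewhat higher. SIRT1, a nuclear deacetylase of histones and p53, had 400 normalized counts in control, 464 with oxamate and 474 with oxamate+lactate (log2 ratio 0.21). SIRT7, the sirtuin of the nucleolus, had 292, 369 and 338 (0.34), and SIRT2, the cytosolic member, had 438, 527 and 488 (0.27; it overlaps NFKBIB). SIRT6, a nuclear enzyme that acts at telomeres and on glycolytic genes, had 206, 203 and 210 (-0.02). SIRT1, SIRT2 and SIRT7 were lowest in control, and the 3 values of SIRT6 lay within a few counts of each other.

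The corepressor scaffolds were close to level, and none of the 4 was 25% higher or 20% lower in any of the 3 comparisons. NCOR1, the scaffold that activates HDAC3, had 2876 normalized counts in control, 2779 with oxamate and 2561 with oxamate+lactate (log2 ratio -0.05 for oxamate against control; it overlaps an antisense gene). SIN3A and SIN3B, paralogous scaffolds for HDAC1 and HDAC2, had 961, 1103 and 946 (0.20), and 802, 985 and 870 (0.30). RCOR1, the CoREST scaffold that joins HDAC1 and HDAC2 to the demethylase KDM1A, had 806, 825 and 863 (0.03), a sign that turned in other scalings. The level of SIN3A divided by that of SIN3B was 1.2, 1.12 and 1.09. SIN3A and SIN3B were highest in oxamate, whereas NCOR1 and RCOR1 had their extreme values in oxamate+lactate.

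**Figure D3:**
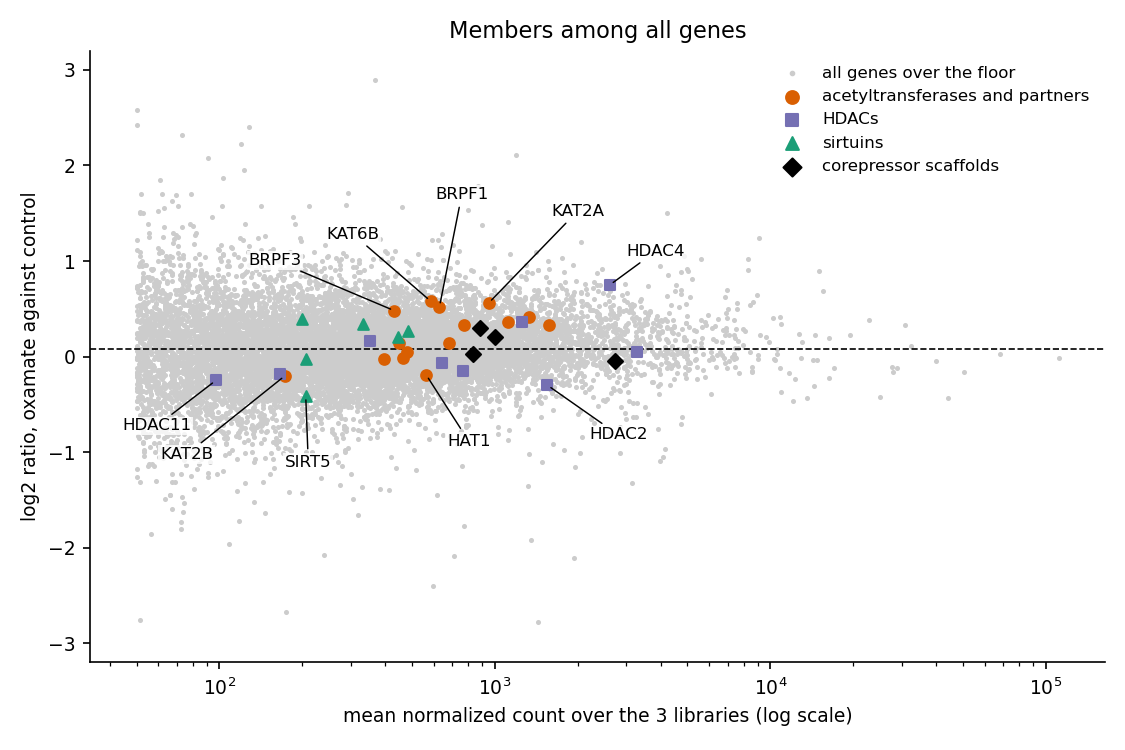
Log2 ratio of oxamate against control (y axis) by mean normalized count over the 3 libraries (log x axis), for all 12292 genes over the floor (grey) and the 34 member genes over it, coloured by kind; the dashed line is the median of all genes, 0.08. HDAC4, at 0.75, lies above 96.6% of all genes, and SIRT5 is the lowest member at -0.41.

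With lactate added to oxamate, the members differed less from oxamate alone than oxamate did from control. At 1.5-fold, 0 of 34 were higher and 0 lower, beside 0.252% and 0.903% of all genes. At the 25% line 0 were higher, beside 2.39%, and at the 20% line 1 of 34 (2.94%) was lower, beside 8.8%. That gene was KAT2A, 1.27-fold lower in oxamate+lactate than in oxamate (log2 ratio -0.34). KAT2A did not pass the line with equal sums (-0.23), with equal ERCC sums (-0.28), relative to the median of all genes (-0.25) or with the GC trend removed (-0.30), and HAT1 was at least 25% higher with equal sums (0.35) and when centred on the median of all genes (0.33). KAT6B and HDAC4, both at -0.29, had the next lowest ratios, and HAT1 (0.24), KAT2B (0.18) and HDAC2 (0.09) the highest. The median of the 34 was -0.12 and that of all genes -0.09. This comparison shares the oxamate library with the one above, which by itself pushes a gene that is high in oxamate down here, so the opposite signs are no second observation.

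Oxamate+lactate against control had 0 of 34 members at least 1.5-fold higher and 0 lower, beside 2.99% and 3.07% of all genes. At least 25% higher were 2 of 34 (5.88%), beside 11.4%, and at least 20% lower were 2 (5.88%), beside 12.4%. The higher genes were the class IIa deacetylases HDAC4 (log2 ratio 0.46) and HDAC7 (0.33, or 1.253-fold), with BRPF3 just outside at 1.247-fold. The lower genes were HDAC11 (-0.39) and SIRT5 (-0.32, or 1.253-fold). EP300 and CREBBP were at 0.14 and 0.15. The median of the 34 was 0.08 and that of all genes -0.01. The split depended on scaling, with 5 higher and 1 lower at equal ERCC sums, beside 1948 and 1031 of 12292 genes. HDAC4 and HDAC11 passed in all 3 other scalings and with the GC trend removed, and SIRT5 in none of these.

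GC content moved with these ratios. Across the 34 members, GC content of the longest transcript and the ratio of oxamate against control had a Spearman correlation of 0.39, and it was 0.31 across the 10736 genes with a GC value. For oxamate+lactate against oxamate it was -0.50 across the members and -0.23 across all genes. The points share the same libraries, and genes are not independent replicates. The median GC content was 52.4% for the members and 48.2% for all genes. Among the named genes KAT2A has a GC content of 59.9%, BRPF1 58% and HDAC4 55.1%, while HDAC2 has 38.2% and HAT1 40.9%. KAT6B at 45.3% and HDAC11 at 61% lie away from that order. With the trend on GC content and length removed, 6 of 34 members were at least 25% higher in oxamate, beside 2171 of 10736 genes. At least 20% lower were 2 of 34, beside 1176 of 10736. Both shares of the members were below those of all genes. The 6 were KAT2A, KAT6B, BRPF1, BRPF3, HDAC4 and SIRT1, with HDAC4 at 0.62, KAT2A at 0.43 and BRPF1 at 0.39. The part of GC content in the rest of each difference was not tested.

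**Figure D4:**
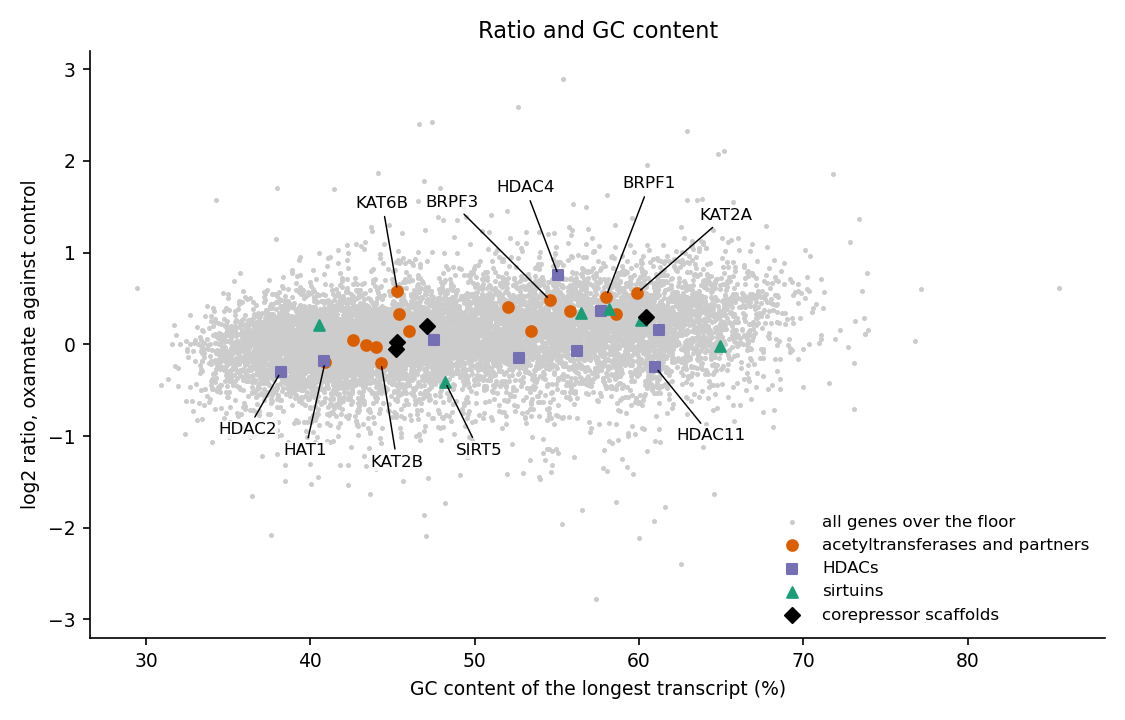
Log2 ratio of oxamate against control (y axis) by GC content of the longest transcript in percent (x axis), for all genes with a value (grey) and the 34 members, coloured by kind. The highest members (HDAC4, KAT2A, BRPF1, BRPF3) lie between 54.6% and 59.9% GC, apart from KAT6B at 45.3%, and the lowest are spread from HDAC2 at 38.2% to HDAC11 at 61%.

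The members work inside complexes, and 9 lists of partner, supply and reader genes were counted in the same way. Together they hold 124 genes, 119 of them over the floor. In oxamate against control 35 of the 119 (29.4%) passed the line of 25% higher and 10 (8.4%) that of 20% lower, which is nearer than the members' counts to the 23.1% and 11.8% of all genes. At 1.5-fold 7 (5.88%) were higher and 5 (4.2%) lower, near the 7.48% and 3.98% of all genes. Relative to the median of all genes 19 of the 119 were at least 25% higher and 12 at least 20% lower, beside 2024 and 2033 of 12292 genes. Centred counts of the lists below stand beside the same shares. The list medians ran from -0.16 to 0.33, as the plot of partner genes shows. Of the partners named, MRGBP, BRMS1L and ZNF217 overlap antisense genes.

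The partners of MOZ, HBO1, MSL and NSL, complexes of MYST enzymes other than TIP60, had a median log2 ratio of 0.33 for oxamate against control. Of 16 over the floor, 3 were at least 1.5-fold higher, 8 at least 25% higher and 0 at least 20% lower, and 6 were at least 25% higher relative to the median of all genes. HCFC1, a host cell factor that tethers the NSL complex and chromatin methyltransferases, had 3871 normalized counts in control, 6796 with oxamate and 4895 with oxamate+lactate (0.81). JADE2, a scaffold of the HBO1 complex, had 635, 1044 and 867 (0.72), and KANSL2, a subunit of the NSL complex and the lowest of the list, had 473, 465 and 461 (-0.02). Partners in the complex of TIP60, which is also a MYST enzyme, had a median of 0.08, equal to that of all genes. Of 16, 1 (6.25%) was at least 25% higher and 1 (6.25%) at least 20% lower, beside 23.1% and 11.8% of all genes. EPC2, an enhancer of polycomb homolog in that complex, had 208, 299 and 285 (0.52), MRGBP had 446, 550 and 547 (0.30) and YEATS4, a reader subunit, had 496, 376 and 426 (-0.40). The difference between the lists has no test.

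For SAGA and ATAC the median was 0.23 over 21 partners. Of these 7 (33.3%) were at least 25% higher, beside 23.1% of all genes, and 2 (9.52%) at least 20% lower, beside 11.8%. TADA2B, the adaptor that joins GCN5 to SAGA, had 273 normalized counts in control, 440 with oxamate and 430 with oxamate+lactate (log2 ratio 0.69), and CSRP2BP (KAT14), an ATAC subunit, had 211, 307 and 232 (0.54). SUPT3H, a SAGA core subunit, had 93, 61 and 80 (-0.60). CSRP2BP overlaps PET117 on the same strand. Centred on the median of all genes, the list had 4 higher and 2 lower.

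Among the deacetylase complexes, the 12 NuRD partners over the floor had a median log2 ratio of 0.31. Of these 5 (41.7%) were at least 25% higher, beside 23.1% of all genes, and 0 at least 20% lower, beside 11.8%. MBD3, the methyl-binding domain subunit, had 894 normalized counts in control, 1478 with oxamate and 1210 with oxamate+lactate (0.72), the remodeler CHD3 had 2522, 3667 and 3432 (0.54), and MBD2, the subunit that replaces MBD3 and binds methylated DNA, had 597, 521 and 510 (-0.20). MBD3 overlaps a coding gene model on the same strand. The 14 SIN3 partners had a median of 0.23, with 4 (28.6%) at least 25% higher, near the share of all genes, and 0 at least 20% lower. Their ends were BRMS1L at 53, 77 and 61 (0.53), SAP30L at 383, 489 and 454 (0.35) and SUDS3 at 1010, 867 and 854 (-0.22). Centred on the median of all genes, 3 NuRD partners and 1 SIN3 partner were at least 25% higher.

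CoREST partners had a median of 0.08, equal to that of all genes. Of 8, 1 (12.5%) was at least 25% higher, beside 23.1% of all genes, and 1 (12.5%) at least 20% lower, beside 11.8%. Relative to the median of all genes these counts were 0 and 2. KDM1A, the histone demethylase of the complex, had 2759 normalized counts in control, 3567 with oxamate and 3231 with oxamate+lactate (log2 ratio 0.37). The next was ZNF217 at 902, 1063 and 976 (0.24). RCOR2, the paralog of the RCOR1 scaffold, had 156, 99 and 103 (-0.65), beside the level values of RCOR1. Partners of NCoR and the mitotic deacetylase complex over the floor numbered 7. Of these 3 (42.9%) were at least 25% higher, beside 23.1% of all genes, and 1 (14.3%) at least 20% lower, beside 11.8%. Relative to the median of all genes these counts were 1 and 2. ELMSAN1, the scaffold of the mitotic deacetylase complex, had 460, 773 and 629 (0.75), and TBL1X, an exchange factor of the NCoR complex, had 416, 268 and 320 (-0.63). ELMSAN1 was highest and TBL1X lowest in the oxamate library.

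**Figure D5:**
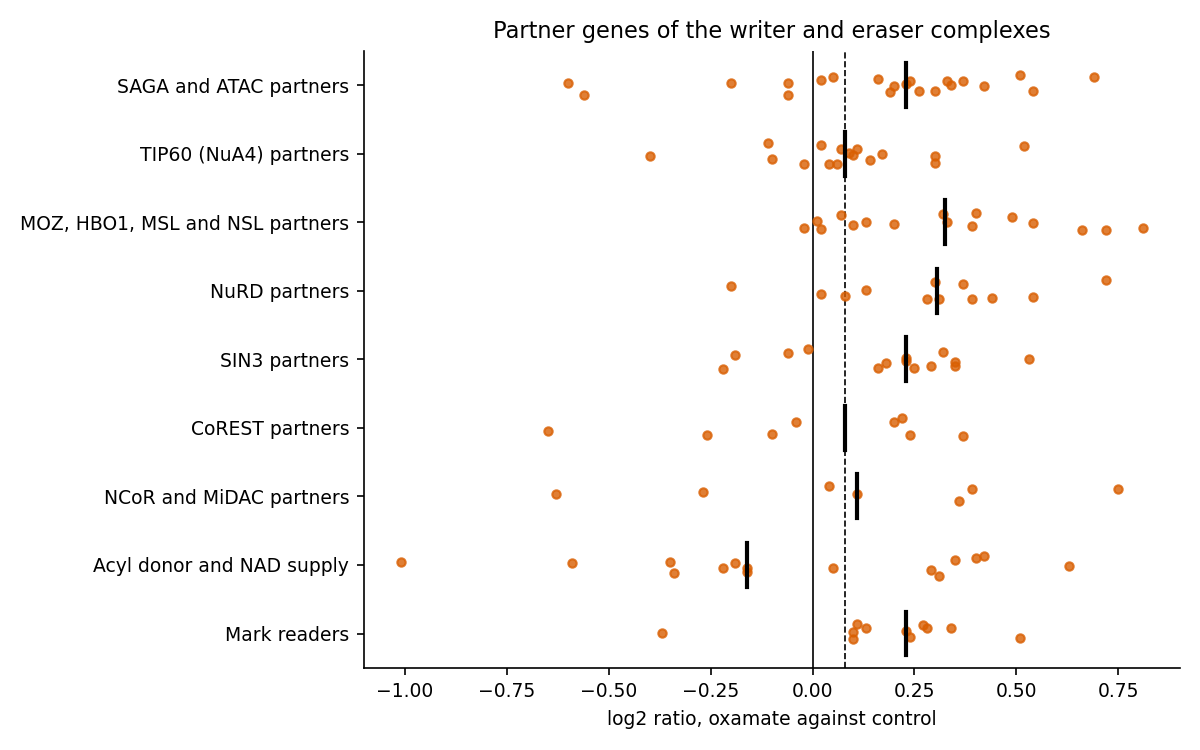
Log2 ratio of oxamate against control (x axis) for the partner genes over the floor, 1 point per gene, in 9 lists; the short bar is the list median, the solid line 0 and the dashed line the median of all genes, 0.08. Medians run from -0.16 for acyl donor and NAD supply to 0.33 for the MOZ, HBO1, MSL and NSL partners.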

How the data were processed

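The deposited table holds a score per gene and library: per the file's name, read counts normalized by the authors, whole numbers in all 17365 rows, of which 36 are ERCC spike-ins left out of the gene counts. The submitters' processing notes list FastQC 0.11.9, STAR 2.7.1a, HTSeq 0.11.2 and build hg19 without saying how each was used. Per the labels' protocols, total RNA from equal numbers of cells was extracted with TRIzol, mixed with ERCC RNA and selected for polyadenylated RNA. The normalization method, annotation and gene filter were not given in the sources used here. Since rounding hides single reads, depth is unknown and no count model was fitted.

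Python 3.11.15, numpy 2.4.6 and pandas 2.3.3 gave the log2 ratios (pseudocount 1, floor 50) and the counts at 25% higher or 20% lower and at 1.5-fold. Counting at 1.5-fold was checked on simulated data with larger planted differences. Counting at 25% higher or 20% lower was not checked in this way. Length, GC content and exon overlaps came from GENCODE 29 by gene name, for 87.3% of genes over the floor and all 34 members over it, and promoters from RefSeq, GRCh38.p14. The members and lists were chosen with earlier results of these data known. Every member was reported, and of each partner list the 2 highest and the lowest gene, except 1 gene that is not reported here. Of the partner symbols, 5 were matched by an older symbol and 4 were not matched. Alternatives were a pseudocount of 10, no floor or one of 200, scaling to equal sums over genes, to equal ERCC sums or to the median of all genes, and removal of the GC and length trend.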

Additional observations from a re-analysis of the deposited data

How the results depend on the processing

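Of the 3 counts of members past 1.5-fold and the 3 medians, 38 of 42 values under the 7 alternatives stayed near the main value. Near meant within 1.5 times of a count or within the SD of the ERCC ratios of a median. For oxamate against control, oxamate+lactate against oxamate and oxamate+lactate against control that SD was 0.13, 0.11 and 0.19. The medians were 0.15, -0.12 and 0.08, near or below the SD in size, so this rule cannot show that a median held. With equal sums the medians were 0.05, -0.01 and 0.09. With no floor, 4 members passed 1.5-fold for oxamate against control, 2 for oxamate+lactate against oxamate and 1 for oxamate+lactate against control, through HDAC9, HDAC10 and SIRT4. With equal ERCC sums 2 passed for oxamate against control, since KAT6B lies at 1.498-fold. The counts at 25% higher or 20% lower moved more. For oxamate against control they were 13 higher and 3 lower with no floor, beside 4624 and 3100 of 17329 genes. They were 5 and 3 with equal sums over genes, beside 1834 and 2212 of 12292. When centred on the median over genes they were 6 and 3, beside 2024 and 2033. For oxamate+lactate against oxamate the call of KAT2A was lost in all 3 scalings and with the GC trend removed. Among the 34 members over the floor, the sign of the ratio changed under a scaling or with the GC trend removed in 5 for oxamate against control, 7 for oxamate+lactate against oxamate and 5 for oxamate+lactate against control. None of these ratios had passed the lines of 25% higher or 20% lower. With 1 library per condition no replicate could be left out, and the spread between cultures is unknown.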

Other observations

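Genes of the supply and use of acyl groups and NAD were measured as well, and not all of them, such as NADK and PARP1, are suppliers. Of 15 over the floor, 4 (26.7%) passed the line of 25% higher with oxamate, beside 23.1% of all genes, 4 (26.7%) passed that of 20% lower, beside 11.8%, and the median log2 ratio was -0.16, beside 0.08 for all genes. The lowest was AARS, which encodes cytosolic alanyl-tRNA synthetase, an enzyme also described as a lactyltransferase, at 3972 normalized counts in control, 1971 with oxamate and 2585 with oxamate+lactate (log2 ratio -1.01 for oxamate against control and 0.39 for oxamate+lactate against oxamate). NAPRT1 (NAPRT), an enzyme of NAD synthesis from nicotinic acid whose gene overlaps an antisense gene, had 740, 1145 and 1021 (0.63), and the mitochondrial acetyl-CoA synthetase ACSS1 had 1011, 1352 and 1233 (0.42).

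Readers of acetylated or otherwise acylated lysines had a median log2 ratio of 0.23 over 11 genes, beside 0.08 for all genes. Of these 2 (18.2%) were at least 25% higher and 1 (9.09%) at least 20% lower in oxamate, shares below the 23.1% and 11.8% of all genes. MLLT1, a YEATS domain reader of the super elongation complex, had 549 normalized counts in control, 781 with oxamate and 617 with oxamate+lactate (0.51), and BRD3, a bromodomain protein whose gene overlaps BRD3OS, had 1304, 1651 and 1449 (0.34). TAF1, the largest subunit of TFIID, had 922, 712 and 671 (-0.37).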
